A study of Mus musculus with 15 samples.

Results

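The genes described here carry a symbol given to proteins of the mitochondrial ribosome: Mrpl (named for the large subunit) or Mrps (named for the small subunit). They were taken by symbol, and a symbol alone does not show that a protein is part of the ribosome. They were measured in RNA-seq libraries of mouse large intestine. GENCODE M21 lists 78 such protein-coding genes. The members, chosen by having a row of their own under their Ensembl identifier in all 15 deposited tables, were 12: 10 Mrpl genes (Mrpl11, Mrpl27, Mrpl32, Mrpl35, Mrpl36, Mrpl43, Mrpl44, Mrpl45, Mrpl46 and Mrpl54) and 2 Mrps genes (Mrps11 and Mrps30). The other 66 lacked such a row in at least 1 table, because the deposited tables also list loci assembled without a gene name. When each assembled locus was given to the annotated gene with which it shared the best reciprocal span, 63 of these 66 gained a value in every library, so that 75 genes, 47 Mrpl and 28 Mrps, could be described. Mrpl33, Mrpl53 and Mrps24 had no value in any library.

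The animals were male C57Bl/6 mice of 4 weeks, and every group had received Cremophor EL (spelled Chremophor in the labels) with 10% DMSO by oral gavage on 3 days, 24 h apart, with tissue taken 12 h after the last dose. The vehicle group received nothing else. The other 4 groups received cymopol, a compound named for the alga Cymopolia, at 1.4 mmol/kg (cymopol high) or 0.3 mmol/kg (cymopol low), or a non-polar algal extract at 1.0 g/kg (extract high) or 0.3 g/kg (extract low). Each group held 3 libraries. The labels do not say whether the 3 came from separate mice, so p-values may measure only the spread between these libraries. The tissue was bulk, so fewer cells of a type and less RNA per cell cannot be told apart.

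Mitochondrial ribosomes translate the few proteins encoded in mitochondrial DNA, which are core parts of the respiratory chain and ATP synthase. Their RNA comes from the mitochondrial genome, whereas all of their proteins are encoded in the nucleus, made in the cytosol and imported. Some of these proteins descend from those of bacterial ribosomes and others occur only in mitochondria. In the colon, absorptive cells rely on oxidation of short-chain fatty acids in mitochondria.

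Promoters of nuclear genes for mitochondrial proteins are known for binding sites of ETS family factors, NRF1 and YY1. The 250 bases before the RefSeq start (GRCm38.p6) were searched on both strands for CCGGAAGT (ETS family), the NRF1 palindrome (the capitals of the Mrpl32 line below, which read the same on both strands) and AAGATGGCG (YY1). RefSeq promoters were found for 11 of the 12 members, and 5 of these 11 held one of the 3 motifs. Of the 72 promoters found for 66 of the 75 genes, 20.8% held a motif, against 5.66% of the 20150 promoters of protein-coding genes in the same table. The ETS motif stood in 10 of those 72 promoters (13.9%, against 3.97% of protein-coding promoters), the NRF1 motif in 3 (4.17%, against 1.11%) and the YY1 motif in 2 (2.78%, against 0.749%). A match is a run of letters and does not show that a factor was bound.

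All 5 member promoters with a motif are shown (the rule for sequences asked for 3 at most, and the others were added after the values were seen), because they place the motif letters beside the gene's start. Capitals mark the motif, and each run is read 5′ to 3′ on the strand of the gene. Where the motif lay in an annotated untranslated region only 30 bases are given. The Mrpl43 stretch (chr19:45006443-45006557, minus strand) is the part of its window outside annotated exons and ends at the base before the start. The others are Mrpl27 (chr11:94653725-94653754, plus strand, in an exon of Eme1 on the opposite strand), Mrpl32 (chr13:14613105-14613134, minus strand, in the first exon region that GENCODE M21 gives Mrpl32), Mrpl36 (chr13:73330968-73330997, plus strand, in an exon of Mrpl36) and Mrps11 (chr7:78783013-78783042, plus strand, at the edge of the coding sequence of Mrpl46).
Mrpl43: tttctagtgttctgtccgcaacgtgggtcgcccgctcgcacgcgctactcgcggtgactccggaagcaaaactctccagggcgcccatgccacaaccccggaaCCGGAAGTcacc
Mrpl27: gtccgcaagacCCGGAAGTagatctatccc
Mrpl32: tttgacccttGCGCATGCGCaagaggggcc
Mrpl36: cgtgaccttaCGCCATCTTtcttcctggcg
Mrps11: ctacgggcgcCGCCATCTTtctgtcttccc
Mrpl43 and Mrpl27 carried the same ETS letters, 5 and 48 bases before their starts. The former was among the most abundant of the 12 members and the latter was listed at 0 in all 15 libraries. The YY1 letters stood on the opposite strand in both Mrpl36 and Mrps11.

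Many of these genes start next to a gene on the other strand. An annotated start of another protein-coding gene on the opposite strand lay within 1000 bases for 9 of the 12 members and for 33 of the 75 genes (44.0%), against 15.2% of the 10661 protein-coding genes tested and 10.9% of all 21938. The members Mrps11 and Mrpl46 are each other's neighbour: their GENCODE M21 models overlap by 412 bases on chromosome 7 (Mrps11 at chr7:78783119-78792989, plus strand, and Mrpl46 at chr7:78775236-78783531, minus strand). Mrpl43 faces Twnk, which encodes the mitochondrial DNA helicase, and the models overlap by 779 bases. Mrpl36 faces Ndufs6, which encodes a subunit of respiratory complex I, with an overlap of 29 bases. Mrpl32 faces the proteasome gene Psma2 across a gap of 75 bases. The labels do not say that strand was kept, so fragments from overlapping ends of such pairs cannot be told apart.

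The libraries differed in depth, and this touches every value below. From the confidence limits in the deposited tables, the fragments in protein-coding genes were estimated at 25233 to 226507 in the vehicle libraries, 288299 to 342013 at cymopol high, 174890 to 556387 at extract high, 31853 to 183351 at cymopol low and 28513 to 106746 at extract low. Levels are given as FPKM, fragment counts scaled to transcript length and library size, so genes can be compared per length. The listed genes had short transcripts: the longest coding transcript of the 75 had a median of 1398 bases, against 3193 bases over the protein-coding genes tested. All 9 colonocyte markers had a value above 0 in at least 1 library of each group. The 5 goblet cell markers with values summed to 17.6 to 193 FPKM in the vehicle libraries, 305 to 867 FPKM at cymopol high and 182 to 830 FPKM at extract high. The 5 adipocyte markers summed to 4.36 to 126 FPKM, 61.1 to 127 FPKM and 8.55 to 25.2 FPKM in these groups. The part of either list in the results was not tested. In cymopol high replicate 14, the 3 small intestine markers summed to 466 FPKM, against at most 8.35 FPKM in the other 14 libraries, and their part in the results was not tested.

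The 12 members were low, and were unevenly detected. In vehicle replicates 2, 4 and 5, 9, 11 and 10 of the 12 were listed at 0. In cymopol high replicates 11, 12 and 14, 2, 1 and 2 were listed at 0, and in extract high replicates 21, 23 and 25, 5, 2 and 2. The low-dose groups were split between libraries: cymopol low replicates 33, 34 and 35 had 11, 8 and 2 members at 0, and extract low replicates 26, 27 and 29 had 11, 2 and 10. The 2 low-dose libraries with few zeros, cymopol low 35 and extract low 27, were the deepest of their groups. A listing at 0 can be a failed estimate as well as an absence of fragments.

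**Figure D1:**
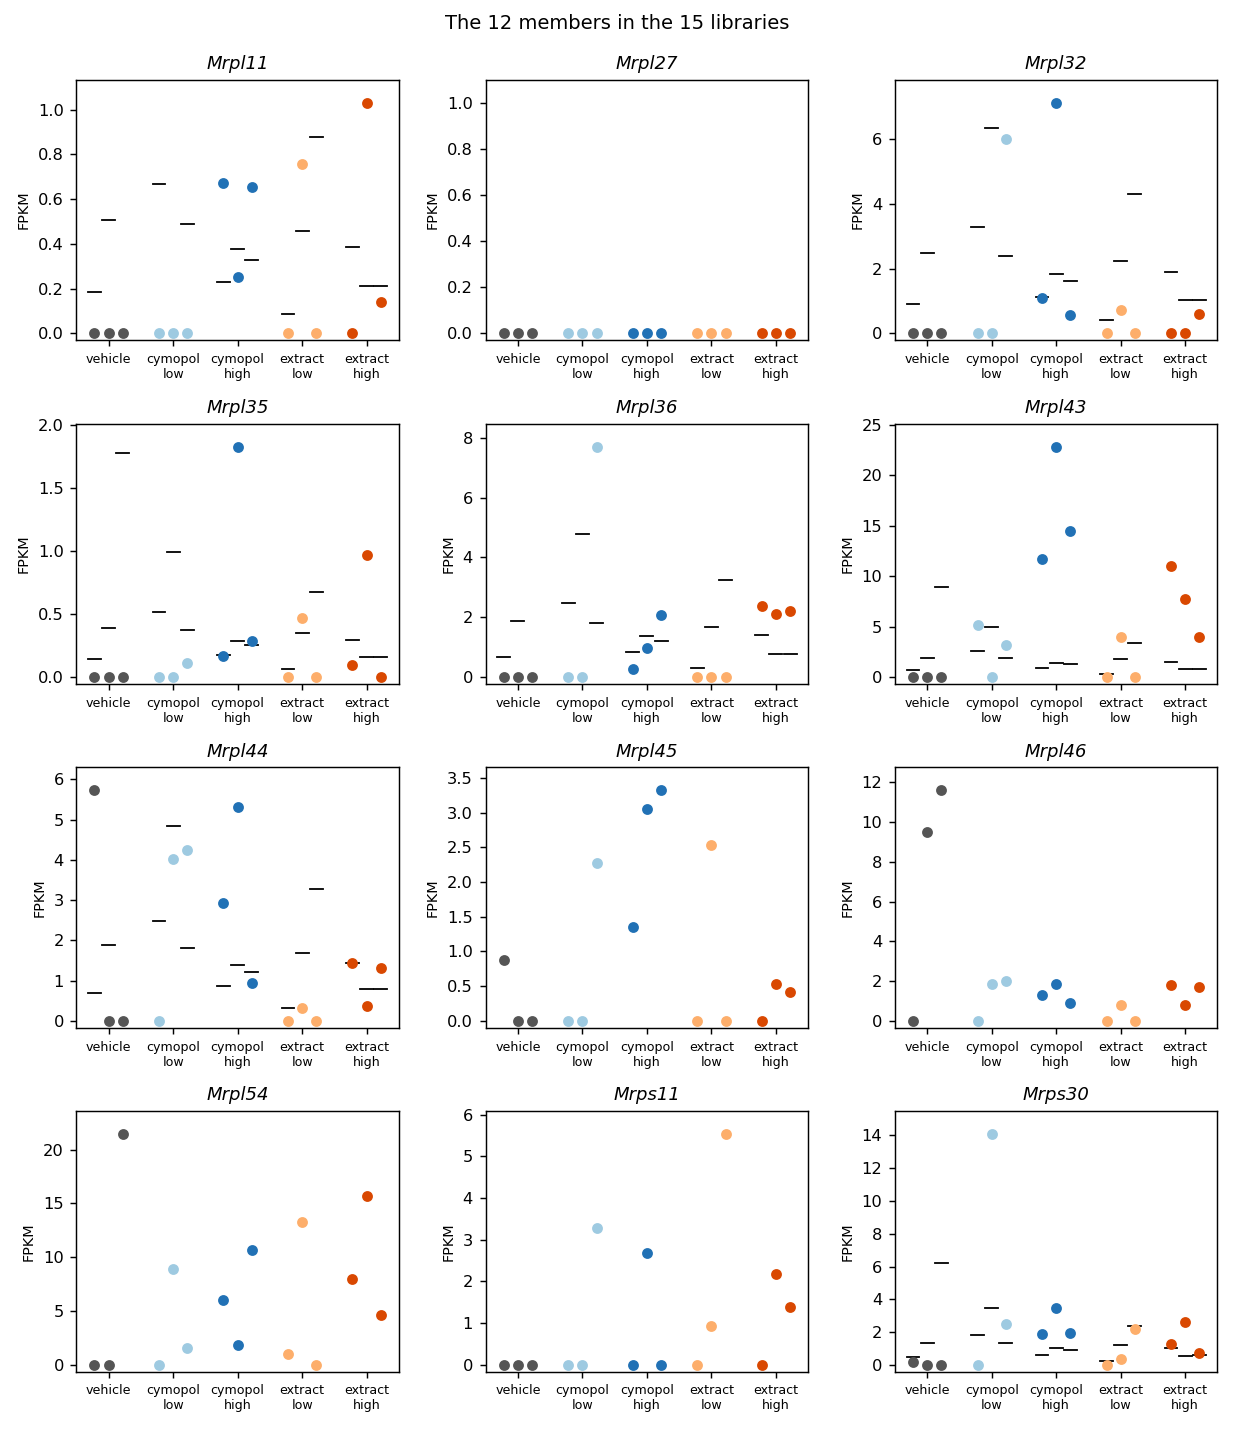
FPKM of the 12 members (one panel each, linear axis from 0) in the 15 libraries, grouped by treatment, one point per library in the order of the replicate numbers. Black ticks give, for the 7 members where it could be derived, the FPKM that 3 fragments would give in that library (ticks above a panel's range are not drawn); Mrpl43 in the cymopol high libraries, at 11.7 to 22.8 FPKM, stands above the ticks of all 3 vehicle libraries.

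Mrpl43 encodes a protein of the large subunit found only in mitochondria, and showed the largest difference of the members. It was listed at 0 in all 3 vehicle libraries. Its level was 11.7, 22.8 and 14.5 FPKM at cymopol high (replicates 11, 12 and 14) and 11.1, 7.76 and 3.93 FPKM at extract high (replicates 21, 23 and 25). It was 5.19, 0 and 3.22 FPKM at cymopol low (replicates 33, 34 and 35) and 0, 4.00 and 0 FPKM at extract low (replicates 26, 27 and 29). Every high-dose library lay above every vehicle library, and the low-dose groups overlapped the vehicle group at 0. In the vehicle libraries 3 fragments of Mrpl43 would have given 0.716, 1.94 and 8.91 FPKM (replicates 2, 4 and 5). All 3 cymopol high libraries lay above these limits, while the 2 lower extract high libraries lay below the limit of vehicle replicate 5. The limit of vehicle replicate 2 is on the lower FPKM scale of that library. The log2 difference (a difference of mean log2(FPKM + 1), not a fold change) was 4.06 ± 0.96 (SE, n = 3 against 3) for cymopol high minus vehicle and 3.01 ± 0.96 for extract high minus vehicle. Neither passed limma's moderated test with Benjamini-Hochberg adjustment over all genes tested (adjusted p = 0.134 and 0.345).

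Mrpl36, Mrpl35 and Mrpl32 encode large subunit proteins with bacterial relatives, and Mrpl32 is known as a protein cut to its mature form by the m-AAA protease. All 3 were listed at 0 in the 3 vehicle libraries. Mrpl36 was 2.37, 2.11 and 2.20 FPKM at extract high (replicates 21, 23 and 25) and 0.273, 0.973 and 2.09 FPKM at cymopol high (replicates 11, 12 and 14). Both high-dose groups lay above the vehicle group, and the highest value, 7.71 FPKM, belonged to cymopol low replicate 35. The log2 differences of Mrpl36 from vehicle were 1.69 ± 0.73 (SE, adjusted p = 0.379 by limma) at extract high and 0.99 ± 0.73 (adjusted p = 0.546) at cymopol high. Mrpl32 was 1.08, 7.12 and 0.558 FPKM at cymopol high and 0, 0 and 0.594 FPKM at extract high, so that only the former group stood clear of the vehicle libraries, by a log2 difference of 1.57 ± 0.72 (SE, adjusted p = 0.339 by limma). Mrpl35 reached 1.83 FPKM in cymopol high replicate 12 and was at or under 0.970 FPKM in the other 14 libraries. At the depth of vehicle replicate 5 none of these 3 genes could be told from 0 at most of the levels seen elsewhere: 3 fragments there would have given 8.54 FPKM for Mrpl36, 11.3 FPKM for Mrpl32 and 1.78 FPKM for Mrpl35. In the same order, the limits were 1.86, 2.47 and 0.388 FPKM in vehicle replicate 4 and 0.687, 0.912 and 0.143 FPKM in replicate 2. Some of the cymopol high values lay under these limits too.

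Mrpl11, a protein at the base of the ribosome's stalk, was listed at 0 in 9 of 15 libraries and reached at most 1.03 FPKM (extract high replicate 23). Mrpl27, whose protein lies near the centre where peptide bonds are formed, was listed at 0 in all 15. Mrpl11, Mrpl27 and Mrpl35 did not reach 1 FPKM in 3 libraries and were not tested.

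Mrpl44, Mrpl45, Mrpl46 and Mrpl54 encode large subunit proteins found only in mitochondria. Mrpl45, which sits near the tunnel where the new protein leaves and helps to hold the ribosome at the membrane, was 0.883, 0 and 0 FPKM in the vehicle libraries and 1.35, 3.06 and 3.32 FPKM at cymopol high, with no overlap. At extract high it was 0, 0.528 and 0.421 FPKM, within the vehicle range. The log2 difference of Mrpl45 was 1.48 ± 0.68 (SE, adjusted p = 0.339 by limma) for cymopol high minus vehicle, and -0.0015 after quantile normalization. Mrpl44, related to RNase III enzymes, was 5.72, 0 and 0 FPKM in the vehicle libraries, and every group held values within that range. Mrpl54 was likewise spread, from 0 in 4 libraries to 21.4 FPKM in vehicle replicate 5, and had the highest median of the 12 (4.61 FPKM).

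Mrpl46 was below the vehicle group in mean in all 4 treated groups. It was 0, 9.47 and 11.6 FPKM in vehicle replicates 2, 4 and 5. It did not exceed 2.01 FPKM in any of the 12 treated libraries. The vehicle group had both the highest values and a 0, so the groups overlapped. The log2 differences from vehicle were -1.14 ± 0.89 (SE) at cymopol high, -1.09 ± 0.89 at extract high, -1.31 ± 0.89 at cymopol low and -2.06 ± 0.89 at extract low (adjusted p = 0.562, 0.594, 0.826 and 0.963 by limma). Its neighbour Mrps11, a protein of the small subunit's platform, was listed at 0 in all 3 vehicle libraries and in 6 of the other 12, and reached 5.53 FPKM in extract low replicate 29, where Mrpl46 was listed at 0.

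Mrps30 carries a small subunit symbol but its protein is known from structures as part of the large subunit, so that only Mrps11 of the 12 belongs to the small subunit by structure. It was 0.158, 0 and 0 FPKM in the vehicle libraries, 1.86, 3.46 and 1.91 FPKM at cymopol high and 1.27, 2.61 and 0.749 FPKM at extract high. Both high-dose groups lay above the vehicle group. However, 3 fragments of Mrps30 would have given 0.502, 1.36 and 6.24 FPKM in vehicle replicates 2, 4 and 5. Every high-dose value lay below the limit of vehicle replicate 5, so its listing at 0 does not bear on that separation. The highest value, 14.1 FPKM, was in cymopol low replicate 34, beside a listing at 0 in replicate 33 of the same group. The log2 differences were 1.67 ± 0.86 (SE) at cymopol high, 1.21 ± 0.86 at extract high and 1.83 ± 0.86 at cymopol low (adjusted p = 0.388, 0.552 and 0.826 by limma).

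None of the 12 members passed the test in any of the 6 comparisons. Of the 12, 9 entered the fit, which held 1106 genes with a row of their own and at least 1 FPKM in at least 3 libraries. At adjusted p under 0.05, limma called 0.0% of these genes for cymopol high minus vehicle and 0.0904% for extract high minus vehicle. It called 0.0% for cymopol low minus vehicle, 0.0% for extract low minus vehicle, 0.0% for cymopol high minus cymopol low and 0.0904% for extract high minus extract low. At an unadjusted p under 0.05, 3 members were higher and 0 lower for cymopol high minus vehicle (13.6% and 0.723% of all genes tested). The counts were 2 and 0 for extract high minus vehicle (11.7% and 0.995%), 1 and 0 for cymopol low minus vehicle (4.43% and 0.995%), and 0 and 1 for extract low minus vehicle (1.54% and 2.26%). Between doses they were 1 and 0 for cymopol (5.97% and 0.995%) and 2 and 0 for the extract (6.51% and 0.542%).

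At the high doses most members lay above the vehicle group in mean, as did most genes tested (76.6% for cymopol and 74.6% for the extract). For cymopol high minus vehicle, 10 of the 12 members were above 0, 1 below and 1 at 0 (8, 3 and 1 after quantile normalization), with a median log2 difference of 0.97, against 0.67 over all genes tested. In that comparison 7 members had all 3 treated libraries above all 3 vehicle libraries (Mrpl11, Mrpl32, Mrpl35, Mrpl36, Mrpl43, Mrpl45 and Mrps30), a separation shown by 19.6% of all genes tested. Mrpl11 and Mrpl35 among these were not tested: member counts and medians are over all 12, of which 9 were tested. The 3-fragment limit could be derived for 7 members. Of these, 1 (Mrpl43) had every cymopol high library above the limits of all vehicle libraries, and 0 had this at extract high. For extract high minus vehicle 10 members were again above 0 and 1 below (7 and 4 after quantile normalization), the median was 0.39, against 0.60 over all genes tested, and 3 members were so separated (Mrpl36, Mrpl43 and Mrps30), against 19.8%. The medians at the low doses were 0.46 for cymopol (0.25 over all genes tested) and 0.22 for the extract (0.00), and 0 members were separated upward in either, against 3.62% and 1.08% of all genes tested. High minus low dose gave medians of 0.44 for cymopol (0.43 over all genes tested) and 0.38 for the extract (0.57), with 3 members separated upward for cymopol (7.69% of all genes tested) and 2 for the extract (14.7%). The 4 comparisons against vehicle share the same 3 vehicle libraries. Without vehicle replicate 4 the member medians were 0.66 for cymopol high and 0.39 for extract high, both under the 0.95 and 0.87 of all genes tested, with 7 and 3 members separated upward. Without vehicle replicate 2 the member medians were 0.84 for cymopol high (0.51 over all genes tested) and 0.69 for extract high (0.44).

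With assembled loci included, 75 genes could be described. The values that came from an assembled locus were less often at 0: 26.1% of 586 such values for the 63 added genes, against 51.3% of the 359 values that came from those genes' own rows and 48.9% of the 180 values of the 12 members. Genes with a row of their own in every table are thus a choice towards values at 0. The source also differed between libraries. Assembled loci gave 39, 36 and 32 of the 75 values in the vehicle libraries, in the order of the replicate numbers. They gave 43, 48 and 41 at cymopol high and 43, 48 and 43 at extract high. They gave 29, 33 and 45 at cymopol low and 29, 44 and 33 at extract low. Group differences over the 75 genes can thus compare values from different sources. The effect of this was not tested. An assembled locus can also reach into a neighbouring gene, and its value was then given whole to the gene it matched best.

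Detection of the 75 genes followed depth. In the vehicle libraries 48, 46 and 58 of the 75 genes were listed at 0 (replicates 2, 4 and 5), against 5, 8 and 12 at cymopol high and 13, 5 and 8 at extract high. At cymopol low the numbers were 56, 40 and 13, and at extract low 57, 13 and 43. Libraries with under 100000 estimated fragments had 40 to 58 genes at 0, and libraries with more had 5 to 13, except vehicle replicate 4. That library had 226507 estimated fragments, more than extract high replicate 21 (174890), cymopol low replicate 35 (183351) and extract low replicate 27 (106746), each with 13 genes at 0. In it, 61.3% of the 75 genes were at 0, compared with 27.1% of all genes tested. The share was 33.8% for 80 nuclear genes of the respiratory chain. It was 18.6% for 97 genes whose symbols begin like those of cytosolic ribosomal proteins (Rpl or Rps with a number, Rplp, or Rpsa). That symbol pattern also takes in other genes, such as S6 kinases (Rps6k symbols). Of the 75 genes, 28 (37.3%) were at 0 in vehicle replicate 4 and above 0 in all 3 of those other libraries, which were chosen for their depth after the data were seen. Over all genes tested that share was 14.3%.

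**Figure D2:**
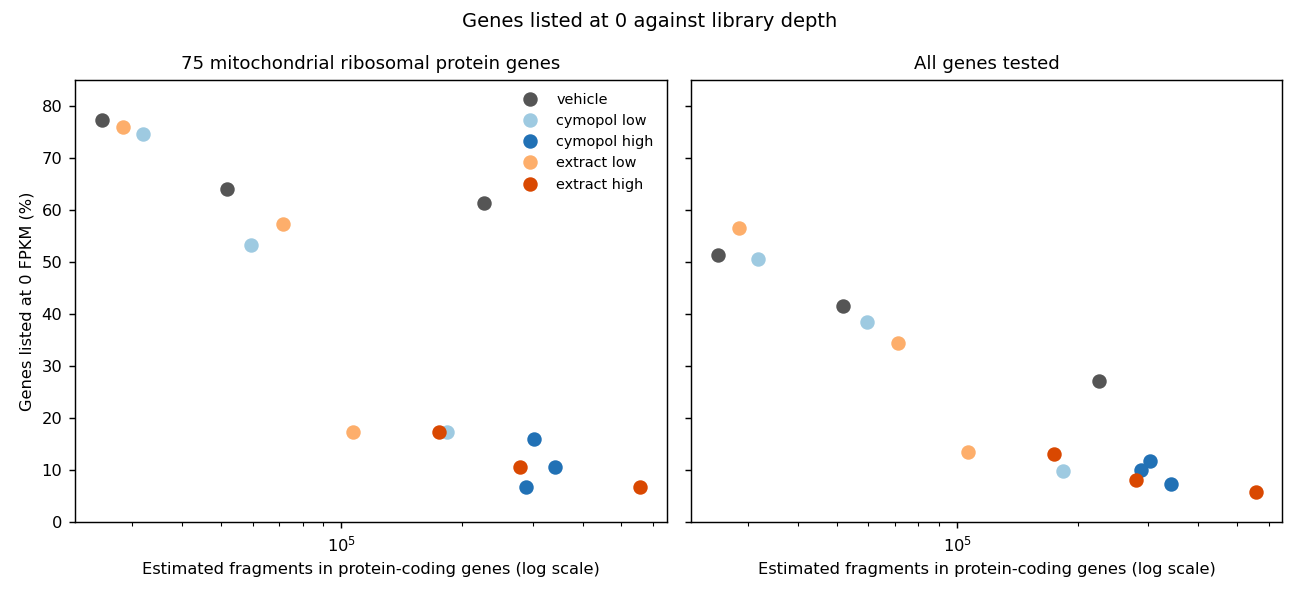
Share of genes listed at 0 FPKM (vertical axis, %) against the estimated fragments in protein-coding genes (horizontal axis, log scale), one point per library and coloured by group, for the 75 genes (left) and for all genes tested (right). Zeros become fewer with depth in both panels; vehicle replicate 4, at 226507 fragments, lies apart at 61.3% on the left and 27.1% on the right.

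Vehicle replicate 4 also differed in other markers: 6 B cell and plasma cell markers summed to 537 FPKM in it, against 0.113 to 72.6 FPKM in the other 14 libraries, and their part in the results was not tested. Few genes made up its sum for the mitochondrial ribosome. Mrps6 (100.9 FPKM), Mrpl14 (46.6 FPKM) and Mrpl10 (36.3 FPKM) gave 46.9% of the 392 FPKM summed over the 75 genes. In the 6 high-dose libraries the leading 3 genes gave 15.6% to 23.7% of the sum.

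As a share of the FPKM of all protein-coding genes, the 75 genes made up 0.129%, 0.269% and 0.238% in the vehicle libraries (replicates 2, 4 and 5). The share was 0.517%, 0.392% and 0.279% at cymopol high and 0.443%, 0.400% and 0.329% at extract high. It was 0.532%, 0.345% and 0.386% at cymopol low and 0.915%, 0.440% and 0.321% at extract low. The 3 vehicle libraries were the lowest of the 15, though vehicle replicate 4 and cymopol high replicate 14 were close. The highest share, in extract low replicate 26, rested on 18 detected genes, with 83.7% of the sum in 3 of them.

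Of the 75 genes, 29 (38.7%) were at 0 in all 3 vehicle libraries, against 13.1% of all genes tested. At cymopol high and at extract high 2 of the 75 (2.67%) were at 0 in all 3 libraries, against 1.55% and 1.51% of all genes tested. A set of 18 genes was at 0 in the 3 vehicle libraries and above 0 in all 6 high-dose libraries (24.0% of 75, against 4.83% of all genes tested). They were 9 Mrpl genes (Mrpl16, Mrpl18, Mrpl19, Mrpl34, Mrpl36, Mrpl40, Mrpl43, Mrpl55 and Mrpl57) and 9 Mrps genes (Mrps5, Mrps9, Mrps12, Mrps18c, Mrps21, Mrps27, Mrps31, Mrps33 and Mrps35), 19.1% of the 47 Mrpl genes and 32.1% of the 28 Mrps genes. A value above 0 can stand for less than 1 estimated fragment: Mrpl19 had 0.01 to 0.74 in the 6 high-dose libraries. Mrps18c had 0.55 and 0.70 in extract high replicates 21 and 25. The depth of the vehicle libraries and the treatment cannot be told apart in these counts.

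None of the 75 genes passed limma's test with Benjamini-Hochberg adjustment in any comparison, and 71 of them were among the 11502 genes tested. The share of all genes called was 0.0174% for cymopol high minus vehicle, 0.00869% for extract high minus vehicle, 0.0% for both low doses minus vehicle, and 0.00869% for each high minus low dose. At an unadjusted p under 0.05, 20 of the 75 were higher and 1 lower for cymopol high minus vehicle (12.5% and 0.756% of all genes tested), and 25 higher and 0 lower for extract high minus vehicle (10.5% and 1.02%). The counts were 5 and 0 for cymopol low minus vehicle (3.89% and 1.79%) and 2 and 3 for extract low minus vehicle (1.11% and 2.81%). Between doses they were 8 and 1 for cymopol (5.34% and 0.496%) and 13 and 0 for the extract (7.09% and 0.2%).

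The median log2 difference of the 75 genes was 1.31 for cymopol high minus vehicle, against 0.81 over all genes tested, and 63 of the 75 were above 0. In that comparison 32 of the 75 had all treated libraries above all vehicle libraries, a separation shown by 19.5% of all genes tested. These medians and counts are over all 75 genes, of which 71 were tested. For extract high minus vehicle the median was 1.30 (0.71 over all genes tested), 63 genes were above 0, and 30 were separated upward (19.3%). For cymopol low the median was 0.58 (0.23) with 54 genes above 0 and 4 separated upward (3.89%), and for extract low 0.29 (-0.14) with 47 above 0 and 2 separated upward (1.23%). Between high and low dose the medians were 0.60 for cymopol (0.59 over all genes tested) and 0.85 for the extract (0.89). There, 12 and 15 genes were separated upward, beside 9.75% and 20.9% of all genes tested. Against vehicle the median of the genes thus lay above the general shift. Between doses it was close to the general shift in this fit, and which was higher depended on the setting. Median-of-ratios scaling gave 0.36 for cymopol (0.25 over all genes tested) and 0.45 for the extract (0.31) between doses. Without vehicle replicate 4, whose zeros stand apart, the medians were 1.49 for cymopol high (1.23 over all genes tested) and 1.51 for extract high (1.12), with 45 and 41 of the 75 separated upward, beside 4943 and 4926 of 11206 genes. Without vehicle replicate 2 the medians were 1.27 for cymopol high (0.47 over all genes tested) and 1.19 for extract high (0.38). Without cymopol high replicate 14 the cymopol high median was 1.56 (0.87 over all genes tested). The counts of separated genes at the low doses and between doses changed by more than 1.5 times when single libraries were left out. Those at cymopol high and extract high fell to 15 and 16 with quantile normalization (941 and 1074 of 11502 genes tested). There, 4 and 3 of the 75 were separated downward (955 and 1052 genes tested). Median-of-ratios scaling left 26 separated upward in each (1571 and 1737 genes tested).

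**Figure D3:**
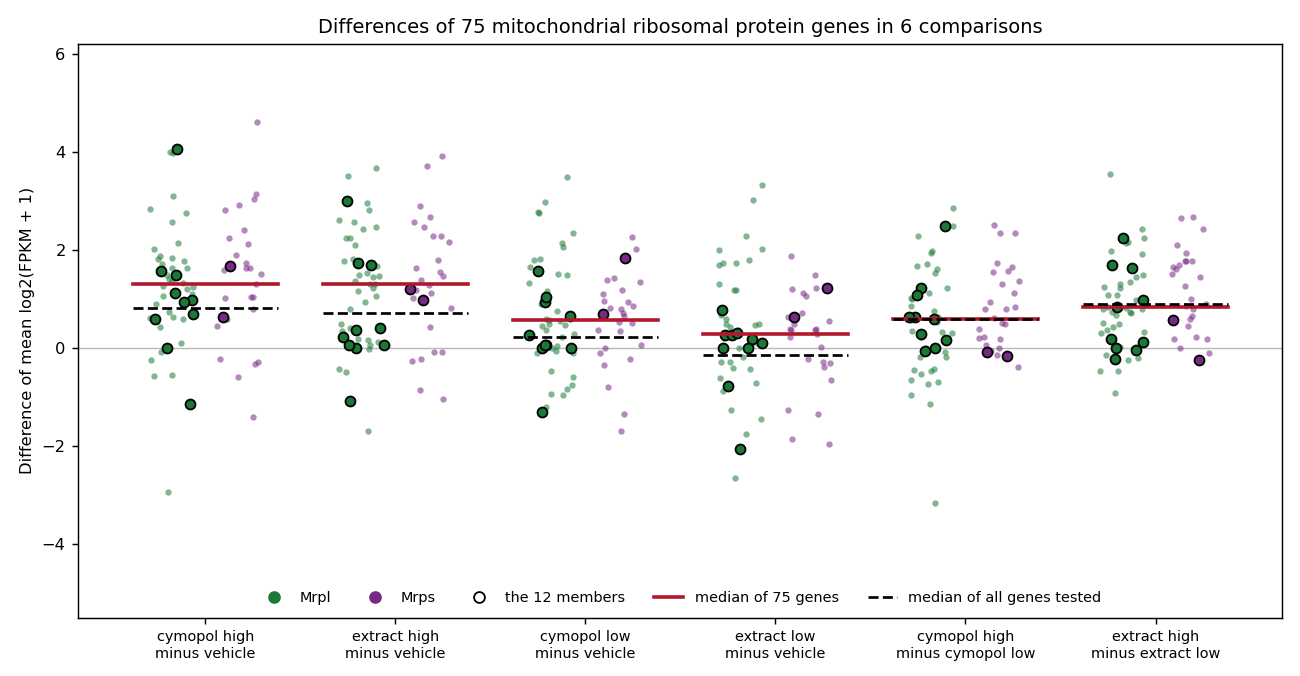
Difference of mean log2(FPKM + 1) for each of the 75 genes (points; green Mrpl, purple Mrps; the 12 members outlined) in the 6 comparisons, with the median of the 75 (red line) and of all genes tested (dashed line). The red line lies above the dashed one in the 4 comparisons with vehicle (1.31 against 0.81 for cymopol high) and beside it in the 2 dose comparisons.

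The smallest p-values for cymopol high minus vehicle belonged to Mrps21, Mrpl43, Mrps18c and Mrpl34. Mrps21, a small subunit protein with a bacterial relative, was listed at 0 in all 3 vehicle libraries and was 29.8, 31.1 and 13.9 FPKM at cymopol high and 5.11, 18.8 and 26.9 FPKM at extract high. All 6 high-dose values lay above the vehicle group. The log2 difference of Mrps21 was 4.61 ± 1.13 (SE) at cymopol high and 3.91 ± 1.13 at extract high (adjusted p = 0.180 and 0.268 by limma). Mrpl34 was 28.6, 13.3 and 8.63 FPKM at cymopol high and 6.26, 15.7 and 2.80 FPKM at extract high, with 0 listed for each vehicle library. For extract high minus vehicle, Mrps12, Mrpl18 and Mrps9 followed Mrps21. Mrps12, a protein of the decoding centre, had 0 listed for each vehicle library and was 11.8, 20.2 and 7.44 FPKM at extract high, a log2 difference of 3.72 ± 1.11 (adjusted p = 0.274 by limma).

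Mrpl18 led both low-dose comparisons. It was listed at 0 in the 3 vehicle libraries and was 14.1, 5.05 and 14.7 FPKM at cymopol low and 0.450, 22.6 and 28.0 FPKM at extract low. It was above 0 in all 12 treated libraries, but at only 0.02 estimated fragments in extract low replicate 26 and 0.17 in cymopol low replicate 34. The log2 differences from vehicle were 3.49 ± 1.14 (SE) and 3.32 ± 1.14 (adjusted p = 0.591 and 1.0 by limma). Mrpl55, the next at extract low, was also listed at 0 in the vehicle libraries and above 0 in all 12 treated libraries. In extract low replicate 26 its value stood for 0.24 estimated fragments. At cymopol low Mrpl9, Mrpl28 and Mrpl17 followed Mrpl18, and at extract low Mrpl28 and Mrpl49 followed Mrpl55. Mrpl9 was 19.2, 0.826 and 13.9 FPKM at cymopol low, against at most 0.109 FPKM in the vehicle libraries, so that these groups did not overlap. However, the 0.826 FPKM stood for 0.1 estimated fragments and the 0.109 FPKM for 0.02, so this separation rests on less than 1 fragment. The FPKM of 3 fragments was not derived for the 63 added genes. Mrpl28 and Mrpl17 each had a low-dose library at 0 beside values up to 18.6 and 42.2 FPKM.

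Some genes had lower means than in the vehicle group, and none passed the test. Only Mrpl24 at cymopol low and Mrps15 at extract low had every treated library below every vehicle library, a separation shown by 0.835% and 1.43% of all genes tested. Mrpl24 was 27.7, 12.4 and 8.21 FPKM in the vehicle libraries and 5.43, 3.86 and 8.21 FPKM at cymopol low. The highest value at cymopol low lay under the lowest vehicle value by less than the rounding shows, and that vehicle value stood for 0.67 estimated fragments. The log2 difference of Mrpl24 was -1.21 ± 1.17 (SE, adjusted p = 0.951 by limma) at cymopol low and -2.64 ± 1.17 (adjusted p = 1.0) at extract low. Mrps15 was 9.19, 0.952 and 3.66 FPKM in the vehicle libraries and 0, 0.588 and 0 FPKM at extract low, a log2 difference of -1.96 ± 1.03 (adjusted p = 1.0 by limma). The 0.952 and 3.66 FPKM stood for 0.15 and 0.11 estimated fragments and the 0.588 FPKM for 0.04, so this separation rests on less than 1 fragment. Mrpl14 was 2.13, 46.6 and 39.6 FPKM in the vehicle libraries and 12.4, 0 and 0 FPKM at cymopol high, a log2 difference of -2.94 ± 1.43 (SE, adjusted p = 0.374 by limma). Mrps17 was 0, 8.49 and 4.01 FPKM in the vehicle libraries and at most 4.61 FPKM elsewhere. For both genes the vehicle group overlapped every treated group, as it did for Mrpl1, Mrps22 and Mrps28, the others among the smallest p-values on the lower side.

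Over all 15 libraries, Mrpl14 had the highest median of the 75 genes (12.4 FPKM), followed by Mrpl12 (9.84 FPKM), Mrpl51 (8.60 FPKM), Mrpl24 (8.21 FPKM) and Mrps21 (8.09 FPKM). Mrpl12 encodes the stalk protein that recruits translation factors, and was above 0 in 14 of 15 libraries. A median of 0 was found for 18 of the 75 genes, 6 of them members. Mrps18b was above 0 in 1 library alone (vehicle replicate 4, 0.618 FPKM). The 3 Mrps18 genes are related copies. Mrps18a, whose protein belongs to the large subunit by structure, was above 0 in 14 libraries with a median of 4.94 FPKM. Mrps18c was above 0 in 8, among them the 6 high-dose libraries (2.87 to 14.2 FPKM).

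Among other proteins with known roles, Mrps5, Mrps12 and Mrps16 were listed at 0 in all 3 vehicle libraries. Mrps5 was 5.43, 9.16 and 5.48 FPKM at cymopol high and 6.40, 4.66 and 9.06 FPKM at extract high. Mrps16 was above 0 in 5 of 15 libraries and overlapped the vehicle group in each treated group. Mrpl2 and Mrpl3, proteins that reach close to the peptidyl-transferase centre, had medians of 4.43 and 1.96 FPKM. Mrpl10, which anchors the stalk, had a median of 4.00 FPKM, and Mrpl23, near the exit of the tunnel, was above 0 in 6 libraries and at most 2.39 FPKM. Mrps2, Mrps7, Mrps22 and Mrps34 had medians of 1.33, 0, 0.373 and 0 FPKM, and their vehicle values overlapped those of every treated group, except for Mrps2 at cymopol high (1.86 to 4.35 FPKM, against at most 1.17 FPKM in the vehicle libraries).

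Large and small subunit genes were compared within each library by the mean of log2(FPKM + 1), over the 47 Mrpl and 28 Mrps genes. The large minus small difference was 0.28 ± 0.08 (SD, n = 3) in the vehicle group, 0.11 ± 0.23 at cymopol high and 0.09 ± 0.25 at extract high. It was 0.38 ± 0.28 at cymopol low and 0.37 ± 0.35 at extract low. The library values ran from -0.06 to 0.63, and each treated group overlapped the vehicle group. Over the 15 genes above 0 in at least 12 libraries the difference was larger, 0.36 in the vehicle group, 0.71 at cymopol high and 1.26 at extract high. Summed FPKM was higher for the 47 Mrpl genes than for the 28 Mrps genes in all 15 libraries. These sums run over unequal numbers of genes, so they do not compare levels per gene. The lowest ratio was in extract high replicate 25 (142 against 97.0 FPKM), where the large minus small difference was -0.06. The highest ratio was in vehicle replicate 5 (178 against 26.5 FPKM). Zeros fell on both subunits: 61.7%, 59.6% and 80.9% of Mrpl genes and 67.9%, 64.3% and 71.4% of Mrps genes were at 0 in vehicle replicates 2, 4 and 5. Over the 12 members, the same difference rested on 2 Mrps genes and was 0.47 ± 0.30 (SD, n = 3) in the vehicle group, 0.36 ± 0.50 at cymopol high, 0.03 ± 0.52 at extract high, -0.47 ± 0.75 at cymopol low and -0.55 ± 1.43 at extract low.

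**Figure D4:**
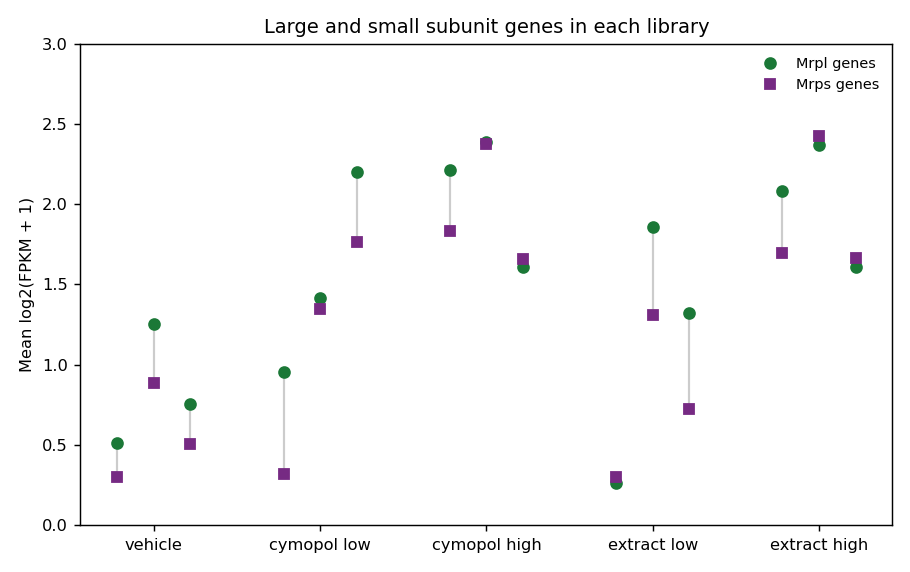
Mean log2(FPKM + 1) of the 47 Mrpl genes (green circles) and the 28 Mrps genes (purple squares) in each of the 15 libraries, joined by a line within a library and placed by group in the order of the replicate numbers. Both subunits move together between libraries, and the large minus small difference stays between -0.06 and 0.63.

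The differences from vehicle are given for each subunit, with no test between them. For cymopol high the median was 1.25 over the Mrpl genes and 1.54 over the Mrps genes, with 19 of 47 and 13 of 28 separated upward. For extract high it was 1.30 and 1.33, with 18 of 47 and 12 of 28 separated upward. Genes with bacterial relatives and genes found only in mitochondria were also taken apart by symbol. Their medians at cymopol high were 1.11 and 1.31 for Mrpl genes (29 and 18 with values) and 1.31 and 1.59 for Mrps genes (17 and 11). The Mrps genes here include Mrps18a (bacterial relatives) and Mrps30 (only in mitochondria), whose proteins belong to the large subunit by structure.

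Other genes of mitochondrial translation were described in the same fit, and none of them passed the test. Of 15 genes for translation factors, 9 were above 0 for cymopol high minus vehicle with a median log2 difference of 0.39, and 11 for extract high minus vehicle with a median of 0.54, beside medians of 0.81 and 0.71 over all genes tested. Tufm, the elongation factor that brings aminoacyl-tRNA to the ribosome, was 0.178, 0 and 0 FPKM in the vehicle libraries, 6.14, 8.62 and 8.41 FPKM at cymopol high and 12.8, 7.18 and 3.25 FPKM at extract high. Both high-dose groups lay above the vehicle group. Gfm1, the elongation factor for translocation, was 0, 0 and 7.79 FPKM in the vehicle libraries and overlapped them in every group. So did Mtif2, the initiation factor, at 0, 1.12 and 4.42 FPKM in the vehicle libraries. For 17 mitochondrial aminoacyl-tRNA synthetases the medians were 0.75 at cymopol high and 0.43 at extract high, and for 20 assembly factors 0.41 and 0.62. Of 5 ribosomal proteins with other symbols, Ptcd3 was at 0 in the vehicle libraries and above 0 in the 6 high-dose libraries (0.481 to 2.50 FPKM), while Dap3 reached its highest value, 13.5 FPKM, in vehicle replicate 2. Tfam, which packs and transcribes mitochondrial DNA, overlapped the vehicle group at both high doses.

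The median of the 75 genes was 1.31 for cymopol high and 1.30 for extract high. It was below that of genes for the complexes their products serve. It was also below that of the genes taken by the cytosolic ribosomal protein symbol pattern, which includes S6 kinase genes. The median log2 difference for cymopol high minus vehicle was 1.95 over 80 nuclear genes of the respiratory chain and ATP synthase. It was 1.53 over the 97 genes of that symbol pattern, with 37 of 80 and 19 of 97 separated upward (19.5% of all genes tested). For extract high minus vehicle the medians were 1.91 and 1.35, with 29 of 80 and 10 of 97 separated upward (19.3%). No test was made between these lists. None of these genes passed limma's adjusted threshold in the 6 comparisons.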

How the data were processed

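The authors deposited 1 table per library of FPKM values with confidence limits for annotated genes and for loci assembled without a gene name. The submitters' processing notes name STAR 2.4.0j and the build GRCm38.p4, and no label or header names the program that assembled loci or computed FPKM. Per the labels' protocols, ribosomal RNA was depleted from 90 ng of total RNA before library preparation.

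Gene names came from GENCODE M21. Assembled loci were given to genes by reciprocal best span of at least 0.5. Fragments were estimated from the FPKM and its upper limit, taken as 2 Poisson standard errors, and the FPKM of 1 fragment came from values within 0.1 of a whole fragment (53.9% to 63.7% of values above 0 per library). Differences were fitted on log2(FPKM + 1) with limma 3.58.1 (R 4.3.3, trend, all 15 libraries), for genes with at least 1 FPKM in at least 3 libraries, with Benjamini-Hochberg adjustment over all genes tested and a threshold of 0.05. The procedure was run on simulated, normally distributed values without an excess of zeros or differences in depth, so that run cannot show how it performs on these libraries. Tables and figures were made with pandas 2.3.3 and matplotlib 3.10.9 under Python 3.11.15.

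Genes were named if called, if among the 4 smallest p-values in each direction against vehicle, if among the 5 highest or lowest medians, or if listed for their role. The members and lists were chosen with earlier results of these data known. Alternatives were another pseudocount, filters, scalings, weights, the 2 groups alone, matched loci, and each library left out.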

Additional observations from a re-analysis of the deposited data

How the results depend on the processing

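No paired analysis was possible because the replicate numbers in the titles differ between the groups. None of the 12 members or of the 75 genes passed the adjusted threshold in any comparison under the alternatives run. The lowest adjusted p of a member was 0.0637 (Mrpl43, cymopol high minus vehicle, with only the 2 groups fitted) and the lowest of the 75 genes 0.0732 (Mrps21, with at least 1 FPKM asked in 10 libraries), both by limma. The alternatives for the 75 genes were chosen after seeing the data. Shallow libraries, many values at 0 and 3 libraries a group limit every result. Members above 0 for extract low minus vehicle went from 8 to 2 without extract low 27, with 4 below and 6 at 0, and for cymopol low minus vehicle from 9 to 4 without cymopol low 35.

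A pseudocount of 0.1 in place of 1 gave member medians of 2.90 (cymopol high), 1.53 (extract high), 1.29 (cymopol low) and 0.87 (extract low) minus vehicle, 1.66 for cymopol high minus low and 1.13 for extract high minus low. For the 75 genes it gave 3.21 and 3.40 at the high doses (1.77 and 1.65 over all genes tested) and 1.33 at cymopol low (0.53). High minus low dose gave 1.70 for cymopol and 2.00 for the extract (1.22 and 1.85 over all genes tested). After quantile normalization 4 members were separated upward for cymopol high minus vehicle and 2 for extract high minus vehicle (92 and 104 of 1106 genes tested). Quantile normalization gave 0.35 (members) and 0.44 (75 genes) for cymopol high minus vehicle and 0.46 (75 genes) for extract high minus vehicle. It moved the median of all genes tested with matched loci from 0.81 to -0.04 and from 0.71 to -0.05, and median-of-ratios scaling moved both to 0.25, with medians of 0.80 and 0.92 for the 75 genes. The large minus small difference with a pseudocount of 0.1 was 0.39 in the vehicle group and 0.69 at cymopol low for the 75 genes, and 0.78 in the vehicle group for the members. Over genes above 0 in at least 12 libraries it was 0.36 (vehicle), 0.71 (cymopol high) and 1.26 (extract high). With Mrps30 counted as large, the members gave 0.93 at cymopol high. For Mrpl45, quantile normalization gave -0.0015 for cymopol high minus vehicle and -0.44 for extract low minus vehicle, and median-of-ratios scaling gave -0.50 for the latter. The cause was not tested.

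With each library left out in turn, member medians ranged from 0.66 to 0.99 (cymopol high), 0.33 to 0.69 (extract high), 0.00 to 0.93 (cymopol low) and 0.00 to 0.40 (extract low) minus vehicle, and from 0.01 to 0.70 and 0.16 to 0.64 for high minus low cymopol and extract. Those of the 75 genes ranged from 1.02 to 1.56, 1.09 to 1.53, 0.00 to 0.99 and 0.00 to 0.54 minus vehicle, and from 0.23 to 0.91 and 0.58 to 1.19 between doses. The low-dose medians reached 0.00 without cymopol low 35 or extract low 27, the deepest of their groups. Genes of the 75 separated upward rose from 4 to 13 without cymopol low 33 and from 2 to 15 without extract low 26 (minus vehicle), and from 12 to 34 without cymopol low 35 and from 15 to 30 without extract low 27 (between doses). Large minus small ranged from 0.23 to 0.31 (vehicle), -0.02 to 0.19 (cymopol high), -0.06 to 0.16 (extract high), 0.25 to 0.53 (cymopol low) and 0.26 to 0.57 (extract low) for the 75 genes, and from 0.30 to 0.58, 0.18 to 0.64, -0.23 to 0.28, -0.83 to -0.08 and -1.05 to 0.27 for the members. For extract low minus vehicle, Mrpl45 ranged from -0.30 (without extract low 27) to 0.61, and Mrpl44 from -1.24 to 0.14 (without vehicle 2).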
